A study of Mus musculus with 2 samples.

Results

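Guanylate-binding proteins were followed across 10 immune classes of the inflamed colon, as the levels of 8 genes of the family: Gbp2, Gbp3, Gbp4, Gbp5, Gbp6, Gbp7, Gbp8 and Gbp9. They were taken by name from the 32228 genes that the count tables list, and all 8 were found. The rule uses no measured value, but the members were chosen with earlier results of these data known. The data were a pair of single-cell libraries of CD45+ cells sorted from the colonic lamina propria, each from 5 pooled mice given 2.5% dextran sulfate sodium (DSS) in the drinking water for 7 or 8 days, which damages the epithelium and causes colitis. The library labelled WT came from C57BL/6 mice and the library labelled Ring1AKO from mice of the same labelled strain in which Ring1A is knocked out in the whole body. The labels give an age of 8 to 10 weeks for both. Ring1A, the protein of the Ring1 gene, is a ring finger component of Polycomb repressive complex 1. All values come from the sorted CD45+ cells of DSS-treated animals, collected after the epithelium was removed, with no untreated mice among them. With 1 library per genotype there was no replicate, the genotype and any difference between the libraries or pools cannot be told apart, and no test and no p-value were possible. The libraries are called WT and Ring1AKO from here on.

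Guanylate-binding proteins are large GTPases of the dynamin family that cells make in response to interferons, above all interferon-gamma. They assemble on the vacuoles of intracellular parasites and on the surface of bacteria that reach the cytosol, expose them to further attack, and bring lipopolysaccharide to caspase-11, the sensor of the non-canonical inflammasome. Macrophages, neutrophils, lymphocytes and epithelial cells can all make them, and in the gut their transcripts are a common readout of exposure to interferon.

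The genes sit in 2 clusters of the mouse genome, given here on GRCm38 from GENCODE vM21. On chromosome 3, on the forward strand, Gbp5 lies at 142493978 to 142522344, Gbp7 at 142530342 to 142550149, Gbp3 at 142560026 to 142573209 and Gbp2 at 142620602 to 142638008. On chromosome 5, on the reverse strand, Gbp8 lies at 105014150 to 105139540, Gbp9 at 105077630 to 105139539, Gbp4 at 105115767 to 105139586 and Gbp6 at 105270702 to 105293698. Gbp8, Gbp9 and Gbp4 overlap each other on the same strand, but share between 60 and 61 exonic bases. The library chemistry counts molecules near the 3′ end of a transcript, and in the last 500 bases of the annotated transcripts no window of 90 bases of Gbp2, Gbp5, Gbp7, Gbp8 or Gbp9 occurred in a transcript of another gene. For Gbp3 the share of such windows was 0.375% and for Gbp4 8.22%. Gbp6 is the uncertain member, since 65.5% of its end windows also occur in Gbp10 or the neighbouring gene model Gm43302, and its counts depend on how shared reads were assigned.

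Promoters are shown for the 4 members on chromosome 3, since the promoter set used here matched only these 4 of the 8. Those of Gbp4, Gbp6, Gbp8 and Gbp9 were not analysed here. Like the other members, the 4 genes were at least 2-fold lower in monocytes, B cells and plasma cells of the Ring1AKO library. Their promoters hold letters that interferon-activated factors are known to bind. A link between these letters and the levels was not tested. The sequences run from 250 bases before to 50 bases after the annotated start, are taken from RefSeq on GRCm38.p6, and are written 5′ to 3′. The window of Gbp5 lies wholly inside the GENCODE interval given above, so the start used for it is downstream of that interval's first base. Capitals mark the core of the interferon-stimulated response element, GAAANNGAAA on either strand, and the gamma-activated site, TTCNNNGAA, whose fixed letters read the same on both strands.
Gbp2, chr3:142620413-142620712, + strand: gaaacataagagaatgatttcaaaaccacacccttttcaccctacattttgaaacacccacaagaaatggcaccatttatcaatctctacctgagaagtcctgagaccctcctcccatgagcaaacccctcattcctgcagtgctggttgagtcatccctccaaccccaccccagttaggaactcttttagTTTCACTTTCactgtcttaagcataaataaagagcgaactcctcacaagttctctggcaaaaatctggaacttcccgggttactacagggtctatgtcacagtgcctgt
Gbp3, chr3:142559794-142560093, + strand: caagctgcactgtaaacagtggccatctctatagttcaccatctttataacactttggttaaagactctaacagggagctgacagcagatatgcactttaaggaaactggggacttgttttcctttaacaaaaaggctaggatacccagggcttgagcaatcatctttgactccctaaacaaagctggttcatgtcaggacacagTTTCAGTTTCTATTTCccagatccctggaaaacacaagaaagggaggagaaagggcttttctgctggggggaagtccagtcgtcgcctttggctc
Gbp5, chr3:142496684-142496983, + strand: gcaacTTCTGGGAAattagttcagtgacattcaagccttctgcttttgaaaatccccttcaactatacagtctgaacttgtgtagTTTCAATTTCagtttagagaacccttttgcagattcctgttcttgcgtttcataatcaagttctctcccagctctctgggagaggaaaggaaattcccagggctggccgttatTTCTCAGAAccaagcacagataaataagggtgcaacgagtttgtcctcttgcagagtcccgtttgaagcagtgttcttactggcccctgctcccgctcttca
Gbp7, chr3:142530086-142530385, + strand: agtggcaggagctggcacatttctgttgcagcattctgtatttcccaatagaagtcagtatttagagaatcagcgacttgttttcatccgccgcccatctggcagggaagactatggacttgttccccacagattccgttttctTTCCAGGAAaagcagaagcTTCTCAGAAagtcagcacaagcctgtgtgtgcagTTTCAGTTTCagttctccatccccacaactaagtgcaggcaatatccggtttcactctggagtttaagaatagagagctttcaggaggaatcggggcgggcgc
The response element core was found once each in Gbp2, Gbp5 and Gbp7 and at 2 overlapping places in Gbp3, starting 59 bases before the annotated start in Gbp2, 53 in Gbp7 and 45 in Gbp3, and 165 in Gbp5. Of all 32851 promoters of 300 bases, 3.44% hold it. The gamma-activated site was found at 2 places each in Gbp5 and Gbp7, and 8.30% of all promoters hold it. It did not overlap the response element core in either promoter, and 0.454% of all promoters hold both. A second annotated start of Gbp3, at chr3:142560106-142560405 with the same margins, held neither. These matches describe letters in a window and do not show that a factor binds there.

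Barcodes were kept with at least 1000 UMIs (unique molecular identifiers, each standing for 1 counted molecule), at least 500 genes and less than 5% mitochondrial UMIs. This left 6005 barcodes with a median of 6354 UMIs in the WT library and 7918 with a median of 5035 in the Ring1AKO library, and 11 barcode sequences occurred in both, none with the same counts. Each was put into the class whose marker genes it showed most, with at least 3 of them, and 4845 and 6609 cells fell into the 10 classes. On average a cell showed between 4.55 and 7.40 of its own class's 8 markers (10 for dendritic cells), and between 1.77 and 3.24 of the next list. Monocytes were 15.6% of the kept barcodes of the WT library and 3.81% of those of the Ring1AKO library, and B cells 20.6% and 47.2%. Ring1 itself had 13.2 CPM (UMIs scaled to a sum of 1000000) in WT and 11.8 CPM in Ring1AKO over the classes, a log2 ratio of -0.17 with an interval of -0.33 to -0.02. Counting near the 3′ end can miss a deletion further upstream, so these values are no check of the labels.

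A level is the UMIs of a gene summed over the cells of a class, in CPM of all UMIs of those cells, with an exact 95% Poisson interval. A ratio is the log2 of Ring1AKO over WT after adding 1 UMI to both sums, with an exact 95% interval conditional on the counts. Both intervals cover counting error only. A gene is called lower or higher in a class where it differs at least 2-fold and has at least 50 UMIs over both libraries, and the share of all genes called lower in that class is given as the background. Since 1 tag is counted per transcript end, levels were not divided by transcript length.

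Monocytes, neutrophils and C1q macrophages of the WT library had the highest summed levels of the family. Summed over the 8 genes, the level was 1746 CPM (1719 to 1774) in monocytes, which are recruited from blood to the inflamed gut, 886 (832 to 942) in neutrophils and 646 (601 to 693) in C1q macrophages. ILC2, the innate lymphocytes that make type 2 cytokines, had 613 CPM (565 to 663). Monocytes thus stood alone at the top, neutrophils stood second with an interval clear of the next class, and the intervals of C1q macrophages and ILC2 overlapped. CD4 T cells followed with 549 CPM (527 to 572), NK cells with 405 (364 to 451) and CD8 T cells with 398 (378 to 419), the last 2 not separable. Dendritic cells had 272 CPM (253 to 292), B cells 259.5 (248 to 272) and plasma cells 192 (186 to 198). The highest class was 9.10 times the lowest. The place of neutrophils rested on Gbp2. Without it the other 7 genes summed to 778 CPM in monocytes, still the highest, and 489 in C1q macrophages. Neutrophils then had 283 CPM, below ILC2 with 537, CD4 T cells with 460, NK cells with 353 and CD8 T cells with 337.

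In the Ring1AKO library the same sum was 152 CPM (136 to 169) in monocytes, 67.8 (55.1 to 82.6) in neutrophils, 235 (208 to 265) in C1q macrophages and 83.0 (72.6 to 94.4) in dendritic cells. CD4 T cells were now the highest class, with 329.8 CPM (313 to 348), ahead of CD8 T cells with 271 (254 to 288) and NK cells with 243 (204 to 287). ILC2 had 198 CPM (162 to 239.7), B cells 67.9 (64.3 to 71.6) and plasma cells 58.1 (54.9 to 61.4). By this sum the order of the classes therefore changed from monocytes and neutrophils first to T cells first, and monocytes stood sixth. From CD8 T cells down to monocytes no class was separated from the next by its counting interval.

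**Figure D1:**
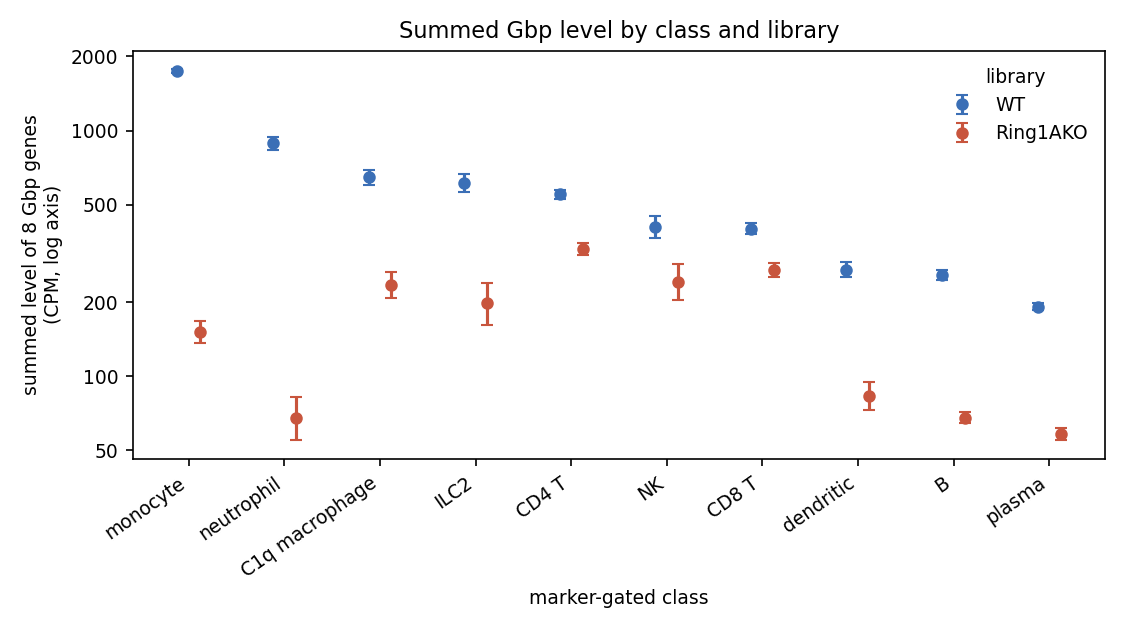
Summed level of the 8 Gbp genes in CPM, on a log axis, in each marker-gated class, with blue points for the WT library and red points for the Ring1AKO library; bars are exact 95% Poisson intervals of counting error. The gap is widest in monocytes, 1746 against 152 CPM, and neutrophils, 886 against 67.8, and narrowest in CD8 T cells, 398 against 271.

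The summed level was lower in the Ring1AKO library in each of the 10 classes. The log2 ratio was -3.69 (-4.02 to -3.41) in neutrophils and -3.52 (-3.68 to -3.37) in monocytes, 12.9-fold and 11.5-fold lower levels. B cells had a log2 ratio of -1.93 (-2.04 to -1.83), ILC2 -1.62 (-1.94 to -1.33) and C1q macrophages -1.46 (-1.67 to -1.26). For plasma cells it was -1.72 (-1.82 to -1.63) and for dendritic cells -1.71 (-1.93 to -1.50). The T and NK classes differed least, with -0.74 (-0.83 to -0.64) in CD4 T cells, -0.73 (-1.04 to -0.45) in NK cells and -0.56 (-0.67 to -0.44) in CD8 T cells. Scaled to the median of all genes instead of the summed UMIs, which lay at a log2 ratio between -0.34 in plasma cells and -0.03 in C1q macrophages, plasma cells moved to -1.38 and no class changed direction.

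The ratios of plasma and dendritic cells depended on how strictly cells were gated. Keeping cells with at most 1 marker of any other lineage left 8 and 35 plasma cells and 21 and 23 dendritic cells, and the log2 ratios were -0.98 and -0.34. The sums there were 84.4 and 43.8 CPM in plasma cells and 204 and 160.2 CPM in dendritic cells. In monocytes the same gate left 48 and 22 cells with 1545 and 183 CPM, a log2 ratio of -3.00. The monocyte marker list summed to 2950 and 2000.45 CPM in plasma cells, all 8 markers being counted in both libraries. Its lowest marker there, Chil3, allowed at most 0.636% and 0.101% monocyte RNA, which would carry 5.79% and 0.264% of the Gbp level. In dendritic cells Chil3 allowed at most 0.103% and 0.0357%. These bounds carry no counting interval and hold only for RNA with the mean Chil3 level of the gated monocytes. Monocytes without a Chil3 UMI were 28.7% and 19.5% of the class, with 1957 and 125 CPM, and their RNA escapes the bound.

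The cells gated as monocytes were not alike in their own markers. Ly6c2, a marker of newly recruited monocytes, had 1180.4 CPM in WT and 265 CPM in Ring1AKO cells, and Ccr2, the chemokine receptor of recruitment, 516 and 271 CPM. Chil3 had 1056 and 3018 CPM and Thbs1 5039 and 7183 CPM, so the list held markers that were lower and markers that were higher, while its sum was 18610 and 20972 CPM. The class therefore sets differently composed cells side by side, and subsets and level per cell cannot be fully told apart in its ratio.

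The summed Gbp level was also compared within monocytes that had, or lacked, a UMI of 1 of these markers, an alternative chosen after the data were seen. Cells with Ly6c2 were 88.6% of the WT and 53.6% of the Ring1AKO monocytes, and had 1812 and 173 CPM, a log2 ratio of -3.38 (-3.58 to -3.21). Those without it had 804 and 118 CPM, at -2.75 (-3.08 to -2.46). With Ccr2 the ratio was -3.54 (-3.72 to -3.37) and without it -2.86 (-3.24 to -2.54), and with Chil3 it was -3.38 (-3.56 to -3.22) and without it -3.94 (-4.35 to -3.61). In each of these 6 subsets the level was lower in Ring1AKO cells.

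Dendritic cells also differed in their own markers. Ccr7 and Fscn1, of mature migratory dendritic cells, had 884 and 1606 CPM and 231 and 454 CPM, while Xcr1 and Clec9a, of conventional type 1 dendritic cells, had 175 and 108 CPM and 82.2 and 53.5 CPM. Ccl22, on the same marker list, went the other way from Ccr7 and Fscn1, with 410 and 271 CPM. Cd209a had 85.8 and 112 CPM and Clec10a 59.6 and 72.2 CPM, so the list does not give a single shift between subsets. In cells with Ccr7 the summed Gbp level was 399.6 and 103 CPM, a log2 ratio of -1.95 (-2.20 to -1.71), and in those without it 143 and 44.0 CPM, at -1.68 (-2.22 to -1.22). Cells with Xcr1, 56 and 44 of them, had 54.0 and 38.2 CPM, at -0.48 (-1.08 to 0.06), so a difference was not detectable there, and those without it had 513 and 111 CPM, at -2.20 (-2.45 to -1.97). Neutrophil markers went both ways. Retnlg had 5338 and 15640 CPM, S100a8 49678 and 64413, S100a9 68056 and 87266 and Mmp9 634 and 801. Csf3r had 1127 and 761 CPM, Cxcr2 371 and 295, Hdc 2942 and 2743 and Il1r2 1683 and 1669. The part of these differences in the neutrophil ratio was not tested.

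Markers of other classes were counted in monocytes too. The C1q macrophage list summed to 1044 and 1378 CPM, the plasma list to 1373 and 978 CPM and the neutrophil list to 751 and 748 CPM. The ILC2 list stood at 79.8 and 344 CPM, and the NK list at 67.6 and 20.6 CPM, with 5 of its 8 markers at 0 in Ring1AKO cells. Median depth was 9729 and 7617 UMIs per monocyte. The part of these differences in the Gbp ratio was not tested.

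Taken over all gated cells, the sum was 556 CPM in WT and 107 CPM in Ring1AKO, a log2 ratio of -2.38 (-2.42 to -2.34). Class composition differed as well, so both were separated as values. Levels of the Ring1AKO library at the class weights of the WT library gave a log2 ratio of -2.17, and the weights of the Ring1AKO library at the levels of the WT library gave -0.65. Compared at the weights of the Ring1AKO library, the levels gave -1.72, and at the levels of that library the weights gave -0.21. The split therefore depends on which library is held fixed. Monocytes supplied 54.6% of the Gbp UMIs and 17.4% of all UMIs of the gated cells of the WT library, and 5.69% and 4.01% of those of the Ring1AKO library. CD4 T cells, with 22.7%, and B cells, with 21.5%, were the largest sources in the Ring1AKO library.

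Free RNA in the suspension held the transcripts too. Barcodes with fewer than 100 UMIs, taken as cell-free, had a summed Gbp level of 531 CPM in the WT library and 145 CPM in the Ring1AKO library. The marker lists of other lineages limit how much of it the classes can hold: the largest share they allowed was between 0.769% and 5.59% of a class's UMIs. These limits are point values without a counting interval, so where few marker UMIs were counted the true limit can be higher. The lowest, in WT neutrophils, rests on the mast list at 0.883 CPM, with 7 of its 8 markers at 0. At that share, cell-free RNA would make up 0.772% and 1.36% of the Gbp level of monocytes, and at most 11.9% in any class and library, in B cells of the Ring1AKO library. With it subtracted, an alternative chosen after the data were seen, all 46 genes and classes called lower were still called lower.

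**Figure D2:**
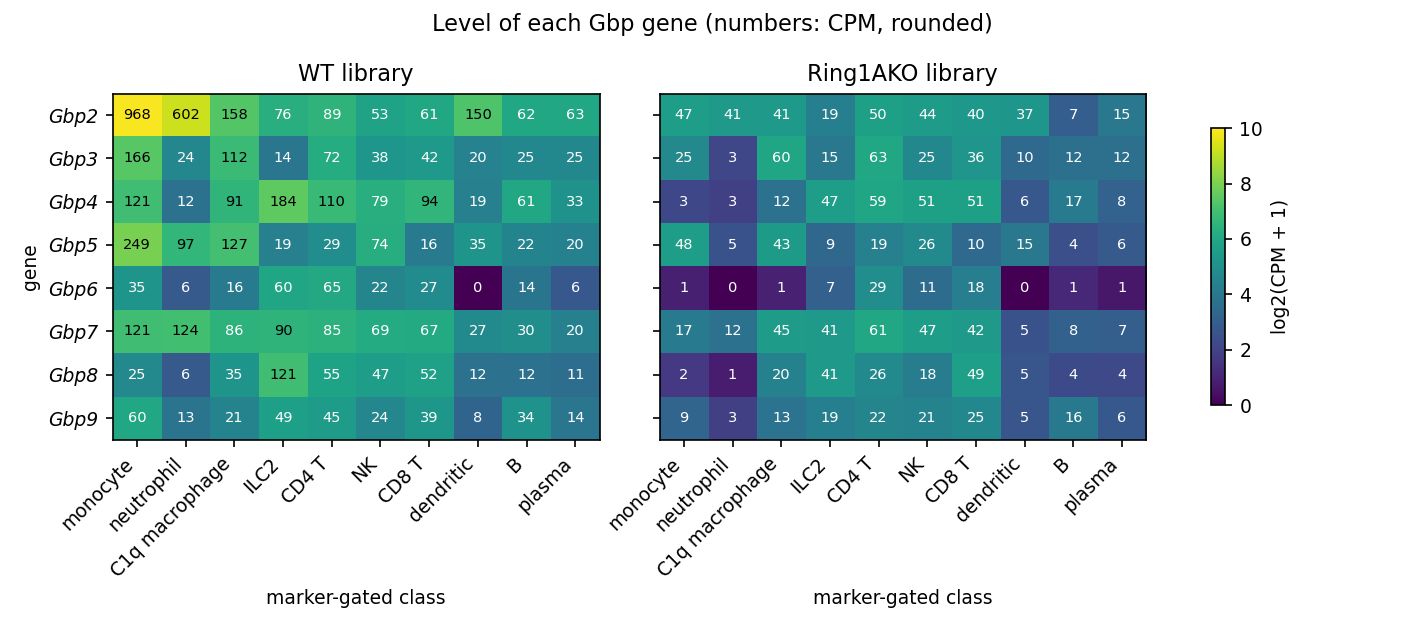
Level of each Gbp gene (rows) in each marker-gated class (columns), coloured by log2(CPM + 1) with the CPM printed in the cell, for the WT library on the left and the Ring1AKO library on the right. In the left panel Gbp2 reaches 968 CPM in monocytes and 602 CPM in neutrophils, and in the right panel no gene of any class passes 62.5 CPM.

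Gene by gene, 79 of the 80 pairs of a member and a class were counted at all, the exception being Gbp6 in dendritic cells, with no UMI in either library. Of these 79, 78 were lower in the Ring1AKO library and 66 had a counting interval wholly below 0, while none had one wholly above 0. The single pair on the other side was Gbp3 in ILC2, with 14 UMIs (14.2 CPM) and 8 UMIs (15.0 CPM) and an interval from -1.38 to 1.43. In all, 65 pairs had at least 50 UMIs, 46 of them were at least 2-fold lower and none was 2-fold higher. The share of all genes with an interval wholly below 0 was not taken. The median log2 ratio of all genes was itself below 0 in each class, between -0.34 in plasma cells and -0.03 in C1q macrophages.

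All 8 members were called lower in monocytes, where 6.67% of all genes were, and all 8 in B cells, where the background was 5.92%, and in plasma cells, where it was 8.95%. All those with enough UMIs were called lower in ILC2 (6 members, background 4.98%), dendritic cells (5 members, background 4.87%) and neutrophils (3 members, background 8.64%). With at most 1 marker of another lineage per cell, 1 of the 5 calls in dendritic cells and 3 of the 8 in plasma cells were left. The count was 3 of 6 members in C1q macrophages, with a background of 2.42%, 3 of 8 in CD4 T cells, with 2.81%, and 2 of 5 in NK cells, with 3.16%. Of the 3 calls in CD4 T cells, 1 was left as a mean over cells, and 1 without cells above the 95th percentile of UMIs. In CD8 T cells none of the 8 passed 2-fold, against 2.9% of all genes. There 6 of their intervals lay below 0, a count without a share over all genes beside it. The median log2 ratio of the members with enough UMIs was -3.05 in monocytes, beside -0.17 for all genes, and -0.63 in CD8 T cells, beside -0.09.

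**Figure D3:**
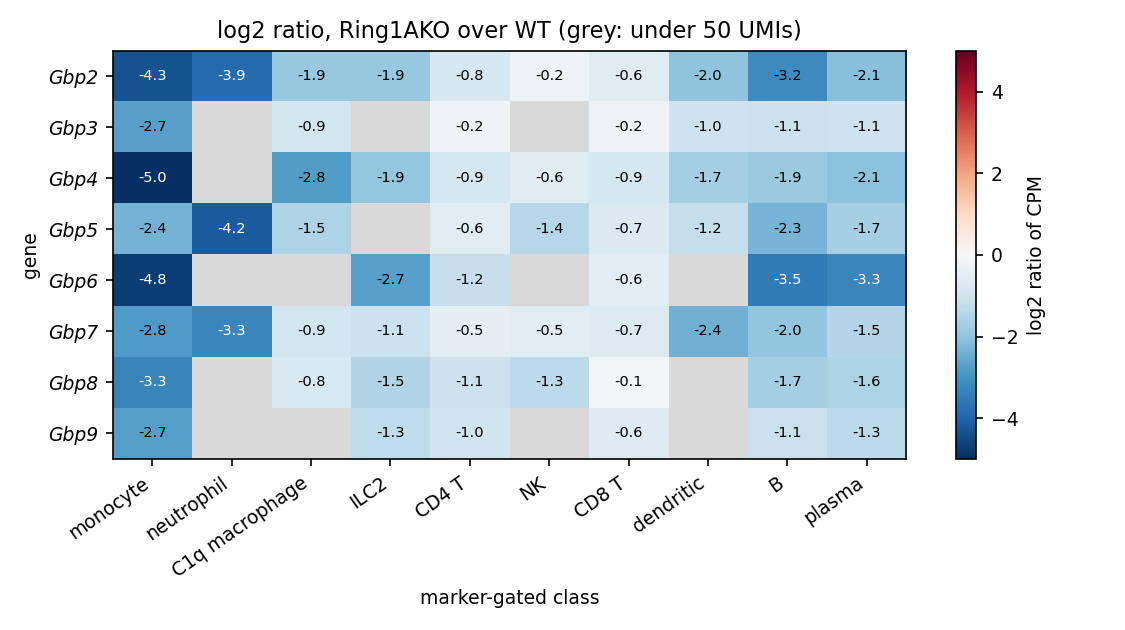
Log2 ratio of the Ring1AKO library over the WT library for each Gbp gene (rows) in each marker-gated class (columns), from blue for lower to red for higher; grey cells have fewer than 50 UMIs over both libraries. Every coloured cell is below 0, from -4.97 for Gbp4 in monocytes to -0.09 for Gbp8 in CD8 T cells.

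Gbp2 (ENSMUSG00000028270), a prenylated member that coats pathogen vacuoles, carried the myeloid pattern. In the WT library it had 968 CPM in monocytes, from 8632 UMIs, 602 in neutrophils, 158 in C1q macrophages and 150.2 in dendritic cells, and between 52.9 CPM in NK cells and 89.0 CPM in CD4 T cells in the lymphoid classes. It made up 55.5% of the Gbp UMIs of those monocytes and 68.0% of those of the neutrophils. In the Ring1AKO library it lay between 6.86 CPM in B cells and 50.1 CPM in CD4 T cells, with 47.3 in monocytes and 41.1 in neutrophils, and the 18.3-fold range over the classes became a 7.30-fold one. The log2 ratio was -4.34 (-4.64 to -4.08) in monocytes, -3.85 (-4.28 to -3.49) in neutrophils and -3.17 (-3.47 to -2.90) in B cells. In NK cells, with 45 and 25 UMIs, it was -0.24 (-1.03 to 0.47), so a difference was not detectable there at this depth. Without Gbp2 the other 7 genes summed to 778 and 105 CPM in monocytes, a log2 ratio of -2.89.

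Gbp5 (ENSMUSG00000105504), also prenylated and known to promote assembly of the NLRP3 inflammasome, followed Gbp2 among the myeloid classes. Its WT levels were 249 CPM in monocytes, 127 in C1q macrophages, 97.1 in neutrophils and 74.0 in NK cells, and at most 34.9, in dendritic cells, in the other 6 classes. Monocytes of the Ring1AKO library had 47.7 CPM, C1q macrophages 42.9, neutrophils 4.80 and NK cells 26.4. The log2 ratio was -4.16 (-5.69 to -3.25) in neutrophils, -2.37 (-2.67 to -2.11) in monocytes and -1.42 (-2.41 to -0.66) in NK cells. Monocytes and C1q macrophages thus had its highest values in both libraries, with overlapping intervals in the Ring1AKO library. The interval of C1q macrophages also overlapped that of neutrophils in the WT library and that of NK cells in the Ring1AKO library.

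Gbp3 (ENSMUSG00000028268), which is recruited to parasite vacuoles, had the ratio nearest 0 of the 8 members in B, plasma and CD4 T cells. It was highest in monocytes (166 CPM) and C1q macrophages (112 CPM) of the WT library, and in CD4 T cells (62.5 CPM) and C1q macrophages (59.6 CPM) of the Ring1AKO library. CD4 T cells had 72.2 and 62.5 CPM, a log2 ratio of -0.21 (-0.45 to 0.03), and CD8 T cells 41.9 and 36.3 CPM, with -0.21 (-0.55 to 0.13), so that neither interval excluded 0. Monocytes, at 166 and 24.9 CPM, had a ratio of -2.71 (-3.14 to -2.36). In B cells (24.8 and 11.9 CPM) and plasma cells (24.7 and 11.9 CPM) it stood close to the 2-fold line, at -1.06 and -1.05, and neither passed it when scaled to the median of all genes, at -0.87 and -0.71.

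Gbp7 (ENSMUSG00000040253), linked to host defence at bacterial and parasite vacuoles, was the most evenly spread member of the chromosome 3 cluster in the WT library. It had 124 CPM in neutrophils and 121 in monocytes, with overlapping intervals, between 67.4 CPM in CD8 T cells and 89.97 CPM in ILC2 in those 2 classes, C1q macrophages, CD4 T and NK cells, and between 19.6 and 29.9 CPM in B, dendritic and plasma cells. Neutrophils of the Ring1AKO library had 12.3 CPM and monocytes 16.8, with log2 ratios of -3.27 (-4.13 to -2.62) and -2.81 (-3.35 to -2.39). CD4 T cells, with 84.8 and 61.1 CPM, had the highest level in the Ring1AKO library, at a ratio of -0.47 (-0.71 to -0.24).

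The cluster on chromosome 5 was laid out differently. Summed, its 4 members had 413 CPM in ILC2 of the WT library, 274 in CD4 T cells, 241 in monocytes and 212 in CD8 T cells, and 38.0 and 40.0 CPM in neutrophils and dendritic cells. The chromosome 3 members summed to 1505 CPM in monocytes, 848 in neutrophils and 199 in ILC2. In the Ring1AKO library the chromosome 5 sum was 15.1 CPM in monocytes, from 35 UMIs, and 143 CPM in CD8 T cells. Its log2 ratio was -3.96 (-4.53 to -3.52) in monocytes, -1.84 (-2.27 to -1.47) in ILC2, -1.003 (-1.15 to -0.86) in CD4 T cells and -0.57 (-0.73 to -0.41) in CD8 T cells. The chromosome 3 sum had -3.46 (-3.62 to -3.30) in monocytes and -0.51 (-0.64 to -0.38) in CD4 T cells. In CD4 T cells the counting intervals of both clusters therefore did not overlap, with the chromosome 5 members the lower ones. B cells showed the reverse, with -2.17 (-2.32 to -2.02) for the chromosome 3 sum and -1.70 (-1.85 to -1.56) for the chromosome 5 sum. Gbp2 held 427 of the 953 chromosome 3 UMIs of WT B cells and 135 of the 606 of Ring1AKO B cells. Its ratio there was -3.17, and the other 7 genes of both clusters together had -1.69 (-1.81 to -1.58). A chromosome 3 sum without Gbp2 was not taken, so this contrast is not separated from that 1 gene. Neutrophils and dendritic cells also had the lower ratio for the chromosome 3 sum, but the intervals of both clusters overlapped there. In monocytes, C1q macrophages, ILC2, plasma, NK and CD8 T cells the chromosome 5 sum had the lower ratio. In each of these classes the intervals of both clusters overlapped, unlike in CD4 T cells, so the clusters were not separable there. Over all gated cells the chromosome 3 sum, in which Gbp2 held 12367 of 21395 WT UMIs, was the lower one, at -2.71 against -1.69. That pooled value also depends on class composition, which differed between the libraries.

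Gbp4 (ENSMUSG00000079363) was highest in ILC2 of the WT library, at 184 CPM, where it made up 30.0% of the Gbp UMIs. Monocytes had 121 CPM, CD4 T cells 109.6, CD8 T cells 93.9 and C1q macrophages 91.3, each interval overlapping the next, and neutrophils had 12.4 CPM, from 14 UMIs. In the Ring1AKO library, ILC2 had 46.8 CPM, CD4 T cells 59.5 and CD8 T cells 51.1, and monocytes 3.44 CPM, from 8 UMIs. Its log2 ratio in monocytes, -4.97 (-6.35 to -4.15), was the lowest of any called pair, with an interval that overlaps that of Gbp2. ILC2 had -1.93 (-2.64 to -1.37) and C1q macrophages -2.81 (-3.81 to -2.09), from 91.3 to 12.3 CPM.

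Gbp6 (ENSMUSG00000104713), whose 3′ end is shared with its neighbours, had its highest values in CD4 T cells in both libraries, at 64.7 and 28.8 CPM. In the WT library their interval overlapped that of ILC2. ILC2 had 59.6 and 7.48 CPM, monocytes 34.9 and 0.860 and B cells 13.8 and 1.17. The 2 UMIs in monocytes of the Ring1AKO library leave the log2 ratio of -4.76 with a wide interval, from -8.39 to -3.48. CD4 T cells had a ratio of -1.16 (-1.49 to -0.86), ILC2 -2.70 (-4.92 to -1.56) and B cells -3.52 (-4.29 to -2.90). Neutrophils had 7 UMIs in the WT library and none in the Ring1AKO library, with an exact interval that reaches 2.53 CPM.

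Gbp8 (ENSMUSG00000034438) was highest in ILC2 of the WT library as well, at 121 CPM, ahead of CD4 T cells with 54.8 and CD8 T cells with 52.3. CD8 T cells had 49.0 CPM in the Ring1AKO library, a log2 ratio of -0.09 (-0.40 to 0.21), the smallest difference of any pair with at least 50 UMIs. In CD4 T cells it was 26.2 CPM, a ratio of -1.06 (-1.40 to -0.73), so the 2 T cell classes differed by more than their counting intervals. The ratio in CD4 T cells fell short of 2-fold with at most 1 marker of another lineage, as a mean over cells and without cells above the 95th percentile of UMIs. Monocytes had 25.1 and 2.15 CPM, at -3.29 (-5.18 to -2.30), from 224 and 5 UMIs.

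Gbp9 (ENSMUSG00000029298), another member found at parasite vacuoles, had the flattest profile of the cluster in the WT library, with 60.5 CPM in monocytes, 48.5 in ILC2, 45.1 in CD4 T cells, 38.6 in CD8 T cells and 33.9 in B cells, neighbours in that order overlapping. The levels in the Ring1AKO library were 8.60 CPM in monocytes, 18.7 in ILC2, 22.2 in CD4 T cells, 24.6 in CD8 T cells and 15.5 in B cells. Its log2 ratio was -2.75 (-3.54 to -2.17) in monocytes and -1.13 (-1.38 to -0.88) in B cells. In CD4 T cells, at -1.01 (-1.39 to -0.66), it stood at the 2-fold line, and a mitochondrial limit of 10% put it at -0.99. There it also fell short of 2-fold as a mean over cells, with median of ratios scaling and without cells above the 95th percentile of UMIs.

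Of the other genes of the family, Gbp2b, the mouse gene once named Gbp1, had 404 UMIs over the classes of the WT library and 120 in the Ring1AKO library. C1q macrophages led with 72.1 and 28.0 CPM, a log2 ratio of -1.33 (-2.00 to -0.76), and monocytes had 17.3 and 0.430 CPM, the latter from 1 UMI, with an interval of -10.6 to -2.83. Gbp10 had 46 and 1 UMIs in all. Its end windows all (100%) also occur in Gbp6 or Gm43302, so its counts depend on how shared reads were assigned. Gbp11 was not analysed here.

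The same UMIs were also read as the share of cells that carried a transcript, which depends on the level and is not a separate measure. To compare cells of unequal depth, each was thinned at random to 1000 UMIs, and the share with at least 1 UMI of any of the 8 genes was counted with an exact 95% Clopper-Pearson interval. Among monocytes it was 52.4% (49.1 to 55.6) of 935 cells of the WT library and 12.3% (8.77 to 16.5) of 302 of the Ring1AKO library, and unthinned 83.5% and 41.7%. Neutrophils had 33.0% (26.9 to 39.7) and 3.92% (1.90 to 7.09), the lowest share of the Ring1AKO library. The lowest share of the WT library was that of plasma cells, 13.3% (10.9 to 16.0), which stand at 5.95% (4.27 to 8.05) in the other library. B cells had 16.8% (14.8 to 19.0) of 1235 cells and 5.84% (5.10 to 6.64) of 3736.

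T cells again differed less. The thinned share was 35.6% (31.7 to 39.6) and 24.7% (21.1 to 28.6) in CD4 T cells, and 27.5% (23.6 to 31.6) and 22.1% (18.7 to 25.7) in CD8 T cells, whose intervals overlap. ILC2 had 38.9% (31.9 to 46.1) and 26.0% (17.9 to 35.5), overlapping as well, although their summed levels were 3.07 times apart. Unthinned, neither pair of intervals overlapped. CD8 T cells then had 77.7% (73.8 to 81.2) and 66.2% (62.2 to 70.1), at median depths of 5818.5 and 5734 UMIs. ILC2 had 77.2% (70.6 to 82.9) and 55.8% (45.7 to 65.5), at 4909 and 4767 UMIs. Gbp2 alone was found in 35.9% (32.9 to 39.1) of the thinned monocytes of the WT library and 2.98% (1.37 to 5.58) of those of the Ring1AKO library. None of these classes is known to lack the genes, so the lowest shares stand in for a background.

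**Figure D4:**
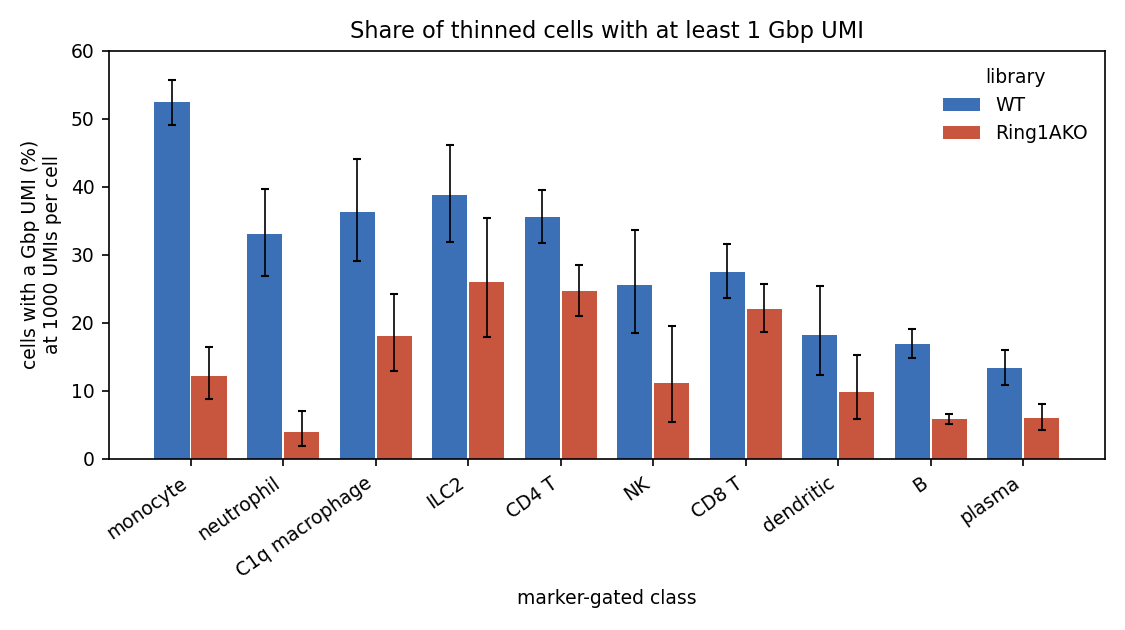
Share of cells, in percent, with at least 1 UMI of the 8 Gbp genes after thinning each cell to 1000 UMIs, by marker-gated class, with blue bars for the WT library and red bars for the Ring1AKO library; lines are exact 95% Clopper-Pearson intervals. Monocytes stand at 52.4% against 12.3%, and CD8 T cells at 27.5% against 22.1%.

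Several members were often found in the same monocyte of the WT library. After thinning, 29.1% (26.2 to 32.1) of the WT monocytes showed at least 2 of the 8 genes and 14.1% (11.9 to 16.5) at least 3. The shares were 0.993% (0.205 to 2.88) and none of the 302 monocytes of the Ring1AKO library, with an exact interval that reaches 1.21%. In the other WT classes the share with at least 2 lay between 2.97% in plasma cells and 13.0% in ILC2. What the levels alone would give was not tested. A WT monocyte held a median of 6 Gbp UMIs before thinning, up to 184, and one of the Ring1AKO library a median of 0, up to 26. The tenth of the cells with the most Gbp UMIs held 44.5% of them in monocytes of the WT library. It was 58.9% in monocytes of the Ring1AKO library, 63.0% and 61.4% in B cells, 61.8% and 61.5% in dendritic cells and 62.4% and 78.8% in neutrophils, so a minority of cells held most of the UMIs there. This share also rises where cells hold few Gbp UMIs, and what sparse counts alone would give was not tested.

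The other genes of the interferon pathway were read from a list of 49 genes by role, chosen with earlier results of these data known. Of these, Gbp11 and Mx1 were not analysed here. In monocytes 44 of the remaining 47 had at least 50 UMIs, of which 31 were at least 2-fold lower, beside the 6.67% of all genes, and none was 2-fold higher, with a median log2 ratio of -1.79. All 6 immunity-related GTPases were called lower, as were 9 of 9 other interferon-gamma targets, 7 of 7 type I interferon-stimulated genes, 6 of 9 signalling genes and Gbp2b. Neither of the 2 receptor genes was. The 5 inflammasome genes and the 5 genes of the machinery that loads these GTPases onto vacuoles had 1 called gene each, Aim2, a DNA sensor, with 32.5 and 14.2 CPM, and Atg16l1, of the autophagy machinery, with 18.1 and 7.74 CPM, both named after their values were seen.

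The lowest ratios of the list in monocytes were those of Cxcl9, a chemokine that draws T cells, at 491 and 1.29 CPM, Iigp1, an immunity-related GTPase, at 61.4 and 0.860 CPM, and Ifit2, a type I interferon-stimulated gene, at 24.01 and 0.430 CPM. Their log2 ratios were -8.16 (-10.85 to -7.02), -5.57 (-9.21 to -4.30) and -4.81 (-11.1 to -3.31), from 3, 2 and 1 UMIs in the Ring1AKO library. At the other end, Nlrp3, the inflammasome sensor, had 615 and 746 CPM, a ratio of 0.28 (0.20 to 0.36). Atg7 and Gabarapl2, of the autophagy machinery, had 0.18 (-0.32 to 0.62) and 0.17 (-0.05 to 0.38), so no difference was detectable.

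**Figure D5:**
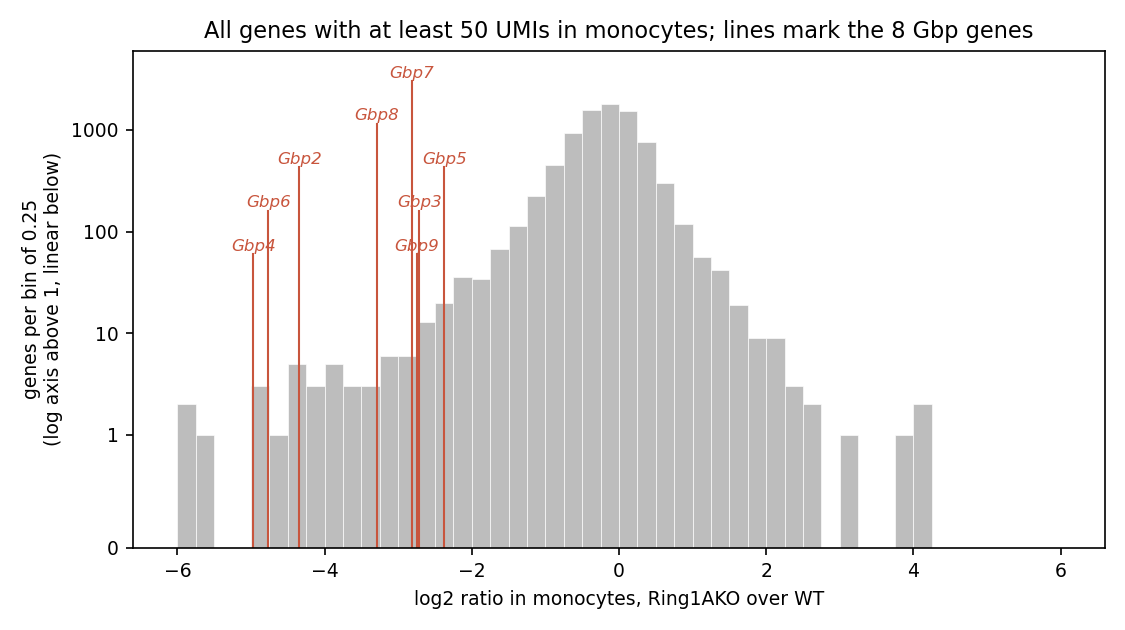
Number of genes per bin of 0.25 in log2 ratio, Ring1AKO over WT, for all 8137 genes with at least 50 UMIs in monocytes (ratios past 6 on either side are drawn in the end bins; the vertical axis is logarithmic above 1), with a red line at each Gbp gene. The 8 lines stand between -4.97 and -2.37, while the median of all genes is -0.17.

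Along the pathway, the ligand, the receptors and the response genes did not share 1 direction. Ifng, the gene of interferon-gamma, was highest in NK cells, at 1166 and 389 CPM, a log2 ratio of -1.58 (-1.80 to -1.37). CD4 T cells had 202 and 91.5 CPM, at -1.14 (-1.32 to -0.97), and CD8 T cells 241 and 289.8 CPM, at 0.27 (0.14 to 0.40), so the ligand was higher in CD8 T cells of the Ring1AKO library. The receptor gene Ifngr1 had 263 and 203 CPM in monocytes, at -0.37 (-0.52 to -0.23), and Ifngr2 had 131 and 115 CPM, at -0.18 (-0.39 to 0.00). Neither passed 2-fold in any class where it had at least 50 UMIs.

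Irf1, an interferon-induced transcription factor, had 408 and 94.6 CPM in monocytes, at -2.10 (-2.31 to -1.91), and -1.85 (-2.20 to -1.54) in neutrophils. Outside monocytes the genes of the list called lower were 18 of 32 in neutrophils (8.64% of all genes), 16 of 39 in B cells (5.92%), 12 of 40 in plasma cells (8.95%), 7 of 40 in CD4 T cells (2.81%) and 7 of 32 in C1q macrophages (2.42%). They were 4 of 36 in dendritic cells (4.87%), 3 of 22 in ILC2 (4.98%), 2 of 37 in CD8 T cells (2.9%) and 2 of 21 in NK cells (3.16%), and counts this small beside such shares are not a result about the list. Only Nos2 in neutrophils, with 20.3 and 44.5 CPM, was called higher, and it was named after its value was seen.

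Over the 20 pairs of class and library, the genes whose log2(CPM + 1) was most like that of the Gbp sum were sought among 7071 genes with at least 1000 UMIs. They were Parp14 (Pearson r = 0.88), Xaf1 (0.86), Irf1 (0.86), Dtx3l (0.84) and Herc6 (0.84). The pairs share libraries and depths, and the difference between the libraries enters these values. Within the 10 classes of the WT library the 5 values lay between 0.69 and 0.89, and within those of the Ring1AKO library between 0.68 and 0.74. Among the members themselves the highest r was 0.93, between Gbp4 and Gbp9, and the lowest 0.21, between Gbp2 and Gbp8, both as descriptions over the same 20 pairs. Gbp4, Gbp6, Gbp8 and Gbp9 had between 0.82 and 0.93 with each other, and Gbp2 had 0.83 with Gbp5.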

How the data were processed

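The deposited tables hold raw UMI counts per gene and barcode, which the authors made from 10x Genomics 3′ reads with Cell Ranger, without cell calling or normalization. The sources name Cell Ranger 4 (matrix header), 6.0.2 (processing notes) and 3.0.1 (methods), and builds mm10 and mm39, and no coordinates were taken from the count files. Each table is 1 library of 5 pooled mice, with 74414511 UMIs in WT and 81862096 in Ring1AKO.

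Barcodes were assigned to the class with the most detected markers, without ties. C1q macrophages also needed 2 of the C1q genes, and T cells were split by Cd4 against Cd8a and Cd8b1, without Trdc. No doublet caller was run, and a gate on markers of other lineages and a limit at the 95th percentile of UMIs were tried instead. Intervals used scipy 1.17.1 with numpy 2.4.6 and pandas 2.3.3 in Python 3.11.15. They were run on simulated Poisson counts, the model they assume. That checks the code only, since the simulation leaves out the spread between cells. Named genes were the 8 members, the rest of the family, the 3 lowest and 3 highest pathway genes in monocytes, Ifng, Ifngr1, Ifngr2 and Irf1, and the 5 genes most like the Gbp sum. A further gene of that rule is not reported here. The members and lists were chosen with earlier results of these data known.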

Additional observations from a re-analysis of the deposited data

How the results depend on the processing

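No paired analysis was possible because each group had 1 library. Under 9 alternatives over all classes, 1 of them (subtraction of cell-free RNA at the largest share) added after the data were seen, the summed ratio stayed below 0 in each of the 10 classes, and in CD4 T, NK and ILC2 cells no alternative moved it beyond its counting interval. With at most 1 marker of another lineage the log2 ratio was -2.11 in B cells, -0.98 in plasma cells, -0.74 in CD8 T cells, -3.00 in monocytes, -1.76 in C1q macrophages, -3.15 in neutrophils, -0.34 in dendritic cells and -2.05 over all gated cells, and Gbp5 in dendritic cells turned to 0.40. Without cells above the 95th percentile of UMIs it was -3.78 in monocytes, -1.94 in dendritic cells and -2.45 over all. As a mean over cells it was -3.41 in neutrophils and -2.42 over all, and with median of ratios scaling -1.74 in B cells, -1.38 in plasma cells, -3.35 in monocytes and -2.25 over all. Within subsets chosen after the data were seen, it was -2.75 in monocytes without a Ly6c2 UMI, -2.86 without Ccr2 and -3.94 without Chil3, and in dendritic cells -1.95 with Ccr7, -0.48 with Xcr1 and -2.20 without Xcr1. The share of monocytes with a Gbp UMI was 83.5% and 41.7% without thinning and 63.2% and 22.5% thinned to 2000 UMIs. Of the 46 genes and classes called lower, between 33 (the gate on other lineages) and 46 stayed 2-fold lower. The causes were not tested. Depth limits neutrophils (3 members with at least 50 UMIs), NK and dendritic cells (5 each) and ILC2 and C1q macrophages (6 each).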

Other observations

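Cells outside the 10 classes carried the genes as well. T cells in neither the CD4 nor the CD8 class had a summed Gbp level of 410.05 CPM in WT (587 cells) and 247 CPM in Ring1AKO (712 cells), a log2 ratio of -0.73 (-0.84 to -0.62). Cells with most markers of stroma, 73 and 53 of them, had 1234 and 142 CPM, at -3.09 (-3.51 to -2.74), although the sort was for CD45+ cells. Plasmacytoid dendritic cells, 36 and 21, had 336 and 67.2 CPM, at -2.23 (-3.23 to -1.52). ILC3, the innate lymphocytes that make interleukin-22, had 234 and 128 CPM in 73 and 91 cells, at -0.86 (-1.28 to -0.46), and mast cells 158 and 57.2 CPM in 12 and 33 cells, at -1.45 (-2.44 to -0.51). Barcodes in no class, 359 and 392, had 645 and 133 CPM, at -2.28 (-2.41 to -2.15). These marker lists were not checked as the 10 classes were.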
